A study of Mus musculus with 6 samples.

Results

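The 10 genes Fasn, Acaca, Acly, Me1, Acss2, Scd1, Scd2, Elovl6, Srebf1 and Thrsp, which make fatty acids or control their making, were compared between the genotypes of a mouse mammary tumor series. They were taken by name, with earlier results of these data known, from 54232 gene identifiers, and all 10 were among the 16752 genes that passed the filter on low counts. RNA was sequenced from tumors of 3 CdGAP fx/fx libraries, called fx1, fx2 and fx3 here, and of 3 CdGAP wt/wt libraries, called wt1, wt2 and wt3. All 6 carry NIC, a transgene that expresses activated ErbB2 and Cre recombinase in mammary epithelium from the promoter of mouse mammary tumor virus. Arhgap31 encodes CdGAP, which inactivates Rac1 and Cdc42, GTPases of the actin cytoskeleton. Its copies in fx/fx mice can be recombined by Cre, so deletion is limited to cells in which the transgene is active. The ages of the mice are not given in the sources used here, nor whether each library came from its own animal. A p-value here therefore reflects the spread among the 6 samples, which may be technical.

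Fatty acid synthesis starts from acetyl-CoA in the cytosol, which ATP citrate lyase makes from citrate and acetyl-CoA synthetase makes from acetate. Acetyl-CoA carboxylase turns it into malonyl-CoA, fatty acid synthase joins these units into palmitate with NADPH that malic enzyme helps to supply, and elongase and desaturases then lengthen palmitate and add a double bond. The transcription factor SREBP1, product of Srebf1, turns on most of these enzymes. The pathway is known for its high activity in the lactating mammary gland, in liver and in fat, and in many carcinomas.

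The fx/fx values of Acss2, Me1, Elovl6 and Acly all lay above the wt/wt values, with estimated folds between 1.43 and 2.25. Srebf1 and Thrsp had lower means in fx/fx, by estimated folds of 2.31 and 2.41, with overlapping libraries. Fasn and Acaca differed by less than the spread between libraries, and Scd1 and Scd2 varied more within wt/wt than between the genotypes. None of the 10 passed an adjusted p under 0.05 in edgeR's quasi-likelihood test, which called 0 of all 16752 genes (0%). At an unadjusted p under 0.05, edgeR had 5 of the 10, against 14.2% of all genes tested. They were 4 higher (8.18% of all genes) and 1 lower, Srebf1 (6.04%). Without wt2 this count was 3 (Me1, Acss2 and Elovl6), where 1943 of 17193 genes tested had such a p. It was 4 without fx1 (1683 of 17155 genes), fx3 (2233 of 17278) or wt3 (1966 of 17215). It was 5 without fx2 (3067 of 17279 genes) or wt1 (1710 of 17203). By limma-voom, which called 0 genes (0%), 5 of the 10 likewise had an unadjusted p under 0.05, against 14.3%. They were the same 4 higher (7.49%) and Thrsp lower (6.78%). DESeq2 called Me1 and Acss2 higher, 2 of the 10, where it called 4.61% of its 18033 genes, 2.89% higher and 1.72% lower. Libraries did not overlap for 4 of the 10 in the higher direction, against 9.74% of all genes, and for 0 of the 10 in the lower direction, against 9.93% (19.7% in both). The log2 fold change was above 0 for 6 of the 10, against 49.6% of all genes. The median log2 fold change of the 10, fx/fx over wt/wt, was 0.43 (0.17 without wt3), against -0.004 over all genes tested.

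Promoters are shown for Acss2, Me1 and Acly, which were higher in fx/fx without overlap, and for Fasn and Thrsp, which overlapped. Elovl6 was also higher without overlap, but its window is not shown. A link between the marked letters and the levels was not tested. The windows run from 250 bases before to 50 bases after a transcription start in RefSeq, build GRCm38.p6, and 8 of the 10 genes had one. Capitals mark the CCAAT box (CCAAT, bound by NF-Y), the GC box (GGGCGG, bound by Sp1) and a core of the sterol regulatory element (ATCACCC), on either strand, with overlapping matches joined.
Acss2, chr2:155517793-155518092, plus strand: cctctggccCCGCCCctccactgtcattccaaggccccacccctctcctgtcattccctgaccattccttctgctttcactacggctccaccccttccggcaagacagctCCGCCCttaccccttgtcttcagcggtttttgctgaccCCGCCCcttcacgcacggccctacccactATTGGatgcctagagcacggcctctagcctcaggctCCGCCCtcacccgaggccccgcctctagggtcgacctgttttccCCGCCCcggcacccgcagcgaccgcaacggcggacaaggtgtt
Me1, chr9:86695865-86696164, minus strand: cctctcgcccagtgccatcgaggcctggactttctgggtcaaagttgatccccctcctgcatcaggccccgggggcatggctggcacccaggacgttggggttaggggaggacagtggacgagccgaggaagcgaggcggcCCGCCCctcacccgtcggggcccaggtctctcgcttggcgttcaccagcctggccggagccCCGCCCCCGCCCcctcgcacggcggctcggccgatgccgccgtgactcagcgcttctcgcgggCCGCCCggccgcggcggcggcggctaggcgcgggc
Acly, chr11:100527951-100528250, minus strand: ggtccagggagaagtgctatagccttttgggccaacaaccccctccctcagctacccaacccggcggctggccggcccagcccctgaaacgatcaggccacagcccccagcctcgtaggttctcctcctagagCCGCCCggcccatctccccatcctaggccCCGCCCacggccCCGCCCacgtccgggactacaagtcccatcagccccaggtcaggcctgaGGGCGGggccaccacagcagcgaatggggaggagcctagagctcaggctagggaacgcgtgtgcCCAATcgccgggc
Fasn, chr11:120824498-120824797, minus strand: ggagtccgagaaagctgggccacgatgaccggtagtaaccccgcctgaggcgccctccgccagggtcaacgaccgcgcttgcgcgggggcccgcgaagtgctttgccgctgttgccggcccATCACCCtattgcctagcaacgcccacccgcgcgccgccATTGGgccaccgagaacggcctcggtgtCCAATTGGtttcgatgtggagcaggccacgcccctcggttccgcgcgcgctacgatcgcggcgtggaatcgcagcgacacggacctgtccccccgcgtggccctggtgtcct
Thrsp, chr7:97417501-97417800, minus strand: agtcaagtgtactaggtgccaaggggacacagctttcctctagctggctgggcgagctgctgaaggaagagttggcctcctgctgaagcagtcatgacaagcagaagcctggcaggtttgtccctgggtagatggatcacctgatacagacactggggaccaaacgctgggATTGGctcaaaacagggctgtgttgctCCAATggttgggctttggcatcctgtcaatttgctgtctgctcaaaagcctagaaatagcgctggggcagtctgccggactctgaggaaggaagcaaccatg
The sterol regulatory element core was found in the window of Fasn, where it begins 129 bases before the start, and in 2.69% of all 32851 windows. The E-box CACGTG was in none of the 8 windows and in 7.15% of all. A CCAAT box lay in the windows of Fasn, Acly, Acss2, Srebf1 and Thrsp, and in 37.4% of all. The GC boxes numbered 5 in Acss2, 4 in Me1 and 4 in Acly, with 35.7% of all windows holding at least 1. The window of Elovl6 held none of these letters. The listed start of Acaca lies 65766 bases from the 5′ end of the counted gene and its window held none either, and for Srebf1, which has 3 listed starts, the most upstream was read.

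Sequencing depth was between 36732137 counts (fx2) and 53606276 counts (fx1) per library. The smallest count of any of the 10 genes was 540, for Acss2 in wt2. Arhgap31 measured 156, 44.1 and 116 CPM (counts per 1000000) in fx1, fx2 and fx3, against 664, 433 and 549.8 CPM in wt1, wt2 and wt3. An exact 2-sided permutation test on log2 CPM returned 0.1, which is the lowest p possible for this design. The epithelial markers Epcam, Krt8 and Krt18 were at 533 CPM or more in every library. These are bulk tumors, in which fewer cells of a type and less RNA per cell cannot be told apart.

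**Figure D1:**
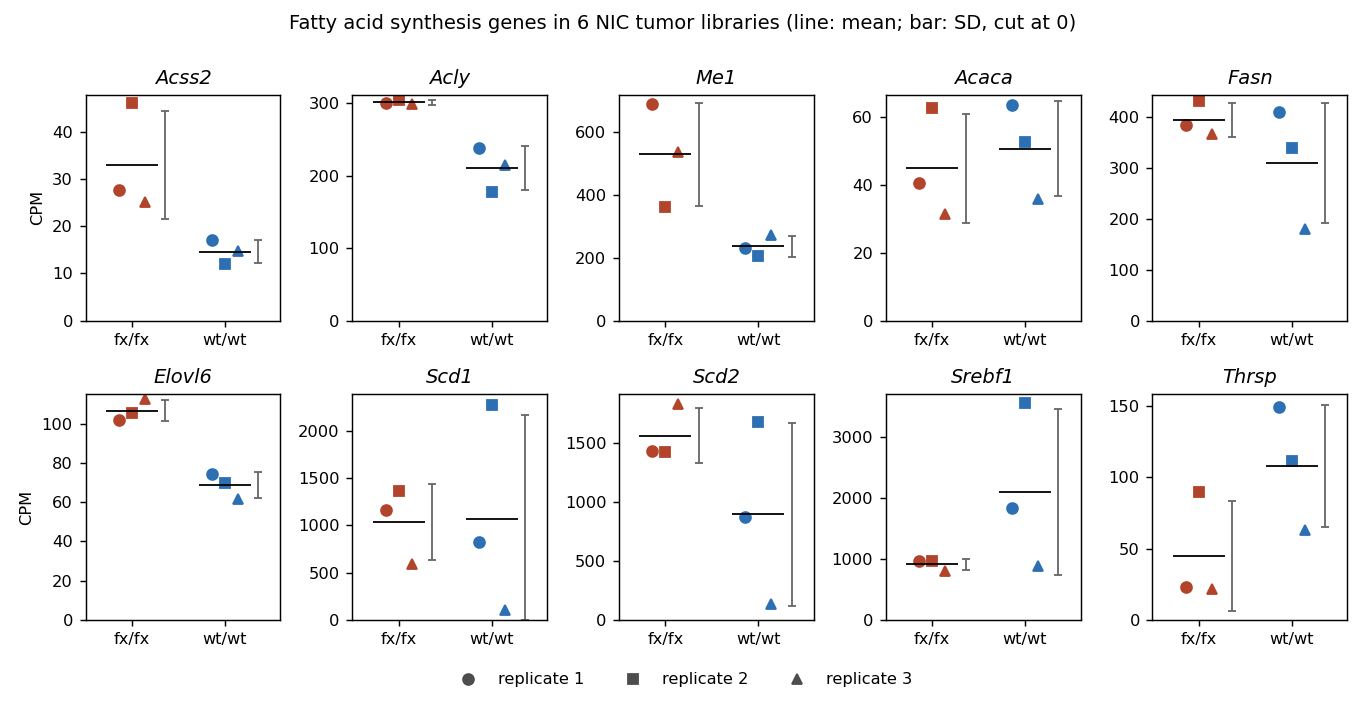
Level of each gene in CPM (vertical axis, from 0) in the 3 fx/fx libraries (left) and the 3 wt/wt libraries (right), with symbols for replicate numbers, a line at the mean and a bar of 1 SD cut at 0. Acss2, Acly, Me1 and Elovl6 do not overlap between the genotypes, while Scd1 in wt/wt spans 104 to 2275 CPM.

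Among the enzymes that supply acetyl-CoA, Acss2 (ENSMUSG00000027605, chromosome 2, 155517948 to 155585724, plus strand, GRCm38) encodes the synthetase that activates acetate. It measured 27.6, 46.1 and 25.1 CPM in fx1, fx2 and fx3, against 17.0, 12.1 and 14.8 CPM in wt1, wt2 and wt3. Every fx/fx library lay above every wt/wt library, and fx2 stood well above the other fx/fx libraries. The means were 32.9 ± 11.4 CPM in fx/fx and 14.6 ± 2.49 CPM in wt/wt (SD, n = 3 each), 2.25-fold higher, with a log2 fold change of 1.17 (SE 0.29, 95% interval 0.51 to 1.83). The edgeR adjusted p was 0.185 and the DESeq2 adjusted p 0.0223, which was 0.0542 without wt1, 0.123 without wt2 and 0.0965 without wt3. Without fx2 the log2 fold change was 0.85. The 118 protein-coding neighbours of Acss2 within 5 Mb had a median log2 CPM relative to the wt/wt mean of 0.41 in fx2, while it was 0.041 for fx1 and 0.045 for fx3. Acss2 itself was at 1.67 in fx2, 0.93 in fx1 and 0.79 in fx3 on that scale, above its neighbours in all 3. The part of the region in the level of Acss2 was not tested.

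Acly (ENSMUSG00000020917, chromosome 11, 100476353 to 100528000, minus strand) encodes ATP citrate lyase, the link from mitochondrial citrate to lipid synthesis. It measured 300.0, 305 and 299 CPM in fx1, fx2 and fx3, against 238, 178 and 215 CPM in wt1, wt2 and wt3. The fx/fx libraries were nearly equal, with a coefficient of variation of 1.09%, against 14.5% in wt/wt. The means were 301 ± 3.28 CPM in fx/fx and 211 ± 30.4 CPM in wt/wt (SD, n = 3 each), a log2 fold change of 0.52 (SE 0.18, 95% interval 0.11 to 0.93). The adjusted p was 0.267 in edgeR and 0.239 in DESeq2. The median of its 200 neighbours was between -0.01 and 0.08 in the fx/fx libraries. The citrate carrier Slc25a1, which exports the substrate of Acly from mitochondria, measured 79.1, 65.7 and 71.7 CPM in fx1, fx2 and fx3, against 68.9, 66.1 and 69.0 CPM in wt1, wt2 and wt3, with overlapping libraries.

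Me1 (ENSMUSG00000032418, chromosome 9, 86581371 to 86695953, minus strand) encodes cytosolic malic enzyme, a source of NADPH for fatty acid synthase. It measured 690.2, 362 and 535 CPM in fx1, fx2 and fx3, against 231, 206 and 272 CPM in wt1, wt2 and wt3. The genotypes did not overlap, and fx2 was here the lowest fx/fx library. The means were 529 ± 164 CPM in fx/fx and 236 ± 33.4 CPM in wt/wt (SD, n = 3 each), 2.24-fold higher, with a log2 fold change of 1.16 (SE 0.27, 95% interval 0.53 to 1.79). The edgeR adjusted p was 0.185 and the DESeq2 adjusted p 0.0132, which was 0.0713 without fx1, 0.0986 without wt1 and 0.0856 without wt2. Its 35 neighbours had medians of 0.27 (fx1), -0.01 (fx2) and 0.20 (fx3), while Me1 was at 1.56, 0.62 and 1.19 in those libraries.

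Other carbon and NADPH genes did not share one direction. Of 21 tested genes of this list, 15 had a positive and 6 a negative log2 fold change, with a median of 0.23. The unadjusted edgeR p was under 0.05 for 3 that were higher and 1 that was lower, where all genes tested had 8.18% and 6.04%. These shares of all genes apply to the counts of every list that follows. Gpi1, phosphoglucose isomerase, had a log2 fold change of 0.70 (SE 0.19) and Pgd, the phosphogluconate dehydrogenase that makes NADPH in the pentose phosphate pathway, one of -0.83 (SE 0.20). Both were called by DESeq2 (adjusted p = 0.0184 and 0.0336) and neither by edgeR (adjusted p = 0.210 and 0.185). Pgd lies on chromosome 4, where its 78 neighbours had medians between -0.72 and -0.56 in fx/fx, beside its own log2 fold change of -0.83. Pdk4, an inhibitory kinase of pyruvate dehydrogenase, and Nnmt were also higher without overlap, at levels of at most 6.57 and 1.53 CPM.

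Acaca (ENSMUSG00000020532, chromosome 11, 84129672 to 84401651, plus strand) encodes acetyl-CoA carboxylase, the committed step. It measured 40.7, 62.6 and 31.5 CPM in fx1, fx2 and fx3, against 63.6, 52.7 and 35.7 CPM in wt1, wt2 and wt3. The genotypes overlapped widely, at means of 44.9 ± 15.97 CPM in fx/fx and 50.7 ± 14.04 CPM in wt/wt (SD, n = 3 each). The log2 fold change was -0.17 (95% interval -0.90 to 0.55, edgeR adjusted p = 0.844), and its sign turned without fx3 (0.04) or without wt1 (0.02). The 102 neighbours of Acaca had medians of -0.67 (fx1), 0.09 (fx2) and -0.79 (fx3), while Acaca was at -0.28, 0.34 and -0.65 there, above its neighbours in each. The part of the region in these values was not tested. Acacb, the carboxylase isoform tied to mitochondria, had a log2 fold change of 0.16 (SE 0.43) with overlapping libraries.

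Fasn (ENSMUSG00000025153, chromosome 11, 120805846 to 120824547, minus strand) encodes fatty acid synthase. It measured 384, 430 and 366 CPM in fx1, fx2 and fx3, against 409, 338 and 179 CPM in wt1, wt2 and wt3. Only wt3 and, by a smaller margin, wt2 lay below the fx/fx libraries, and wt1 lay among them. The means were 393 ± 32.9 CPM in fx/fx and 309 ± 118 CPM in wt/wt (SD, n = 3 each), a log2 fold change of 0.35 (SE 0.30, 95% interval -0.36 to 1.05, edgeR adjusted p = 0.661). Without wt3 it was 0.06. The neighbours of Fasn had medians between -0.10 and 0.05 in fx/fx.

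**Figure D2:**
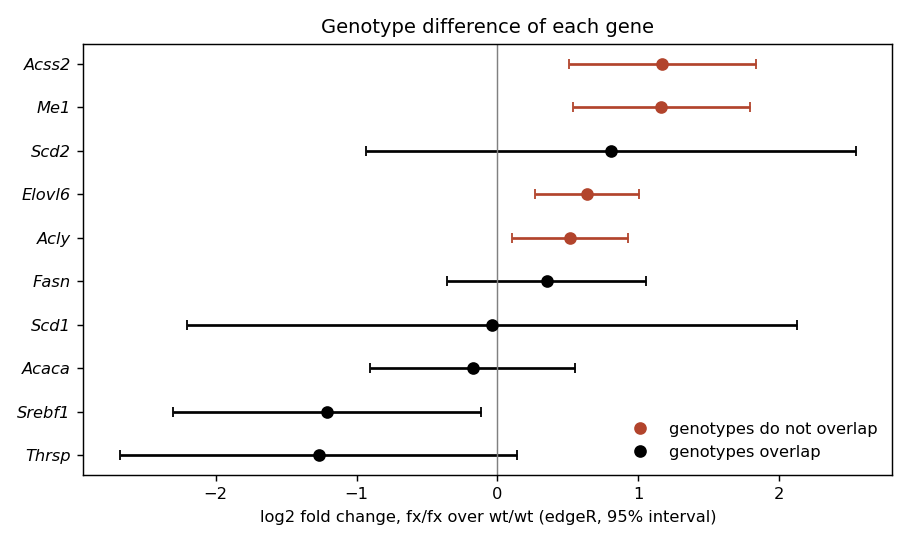
Log2 fold change of each gene, fx/fx over wt/wt, from edgeR (horizontal axis) with its 95% interval, genes sorted by size. The 4 genes whose libraries do not overlap have intervals above 0, from Acss2 at 1.17 to Acly at 0.52, and Scd1 has the widest interval of the 10, -2.21 to 2.12.

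Elovl6 (ENSMUSG00000041220, chromosome 3, 129532355 to 129638495, plus strand) encodes the elongase that turns palmitate into stearate. It measured 102, 106 and 113 CPM in fx1, fx2 and fx3, against 74.6, 70.0 and 61.7 CPM in wt1, wt2 and wt3. Both genotypes were tight and apart, at means of 107 ± 5.34 CPM in fx/fx and 68.8 ± 6.53 CPM in wt/wt (SD, n = 3 each). The log2 fold change was 0.63 (SE 0.16, 95% interval 0.27 to 1.00), with an adjusted p of 0.188 in edgeR and 0.0606 in DESeq2. It lay between 0.55 and 0.70 in edgeR with any 1 library left out.

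Scd1 (ENSMUSG00000037071, chromosome 19, 44394451 to 44407709, minus strand) encodes a stearoyl-CoA desaturase, which makes oleate. It measured 1160, 1363 and 591 CPM in fx1, fx2 and fx3, against 824, 2275 and 104 CPM in wt1, wt2 and wt3. The wt/wt libraries held both the highest and the lowest value of all 6, a 21.9-fold range, against a 2.31-fold range in fx/fx. The log2 fold change was -0.04 (95% interval -2.21 to 2.12, edgeR adjusted p = 0.992), so these data bound the genotype difference of Scd1 only loosely. Its sign turned with several settings, among them the omission of wt2 (1.16), and it was -0.58 without wt3.

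Scd2 (ENSMUSG00000025203, chromosome 19, 44293676 to 44306864, plus strand) lies near Scd1 and encodes a desaturase of the same activity. It measured 1436, 1422 and 1831 CPM in fx1, fx2 and fx3, against 870, 1684 and 133 CPM in wt1, wt2 and wt3. The fx/fx libraries were within a 1.29-fold range, and wt/wt spanned 12.6-fold with wt2 inside the fx/fx values. The log2 fold change was 0.80 (SE 0.74, 95% interval -0.94 to 2.54, edgeR adjusted p = 0.679), 1.64 without wt2 and 0.28 without wt3. A range of 10-fold or more among the wt/wt libraries occurred for 1.02% of 11313 genes with a mean of at least 5 CPM, whose median range was 1.35-fold. Reads that align to both desaturases were not set to be counted, and how many Scd1 and Scd2 lost was not tested. The neighbours of the pair had medians between -0.08 and 0.14 in fx/fx and between -0.03 and 0.01 in wt/wt.

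Library wt3 was the lowest of all 6 for Fasn, Scd1, Scd2 and Elovl6, and also for the desaturase gene Fads2. Fads2 measured 87.0, 48.1 and 67.2 CPM in fx1, fx2 and fx3, against 51.9, 62.3 and 5.15 CPM in wt1, wt2 and wt3. Over the 10 genes, the median log2 CPM relative to the wt/wt mean was 0.55, 0.59 and 0.42 for fx1, fx2 and fx3, against 0.30, 0.11 and -0.57 for wt1, wt2 and wt3. Without wt3 the median log2 fold change of the 10 was 0.17. The order of the libraries by Scd1 was also their order by summed milk and alveolar genes, which was noticed after the values were seen. That sum was 14410, 15820 and 7133 CPM in fx1, fx2 and fx3, against 9029, 18560 and 4633 CPM in wt1, wt2 and wt3. Most of it is Csn3, kappa-casein. By mean log2 CPM of the tested genes of that list, relative to the wt/wt mean, the order was another, with fx1 lowest. That mean was -0.94, 0.52 and -0.415 in fx1, fx2 and fx3, against -0.24, 0.55 and -0.305 in wt1, wt2 and wt3. The part of milk genes in the Scd1 values was not tested.

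**Figure D3:**
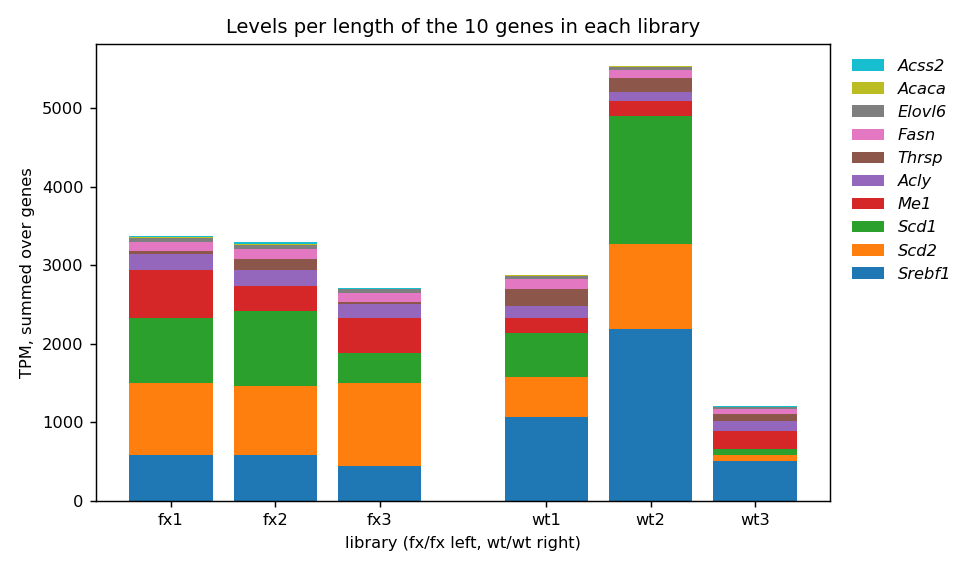
Level per length in TPM (vertical axis) of the 10 genes stacked for each library, fx/fx left and wt/wt right. The sums of the fx/fx libraries lie between 2707 and 3368 TPM and those of the wt/wt libraries between 1205 (wt3) and 5538 (wt2), with Srebf1, Scd1 and Scd2 making up most of the difference.

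Srebf1 (ENSMUSG00000020538, chromosome 11, 60199089 to 60222581, minus strand), which encodes SREBP1, measured 958, 963 and 796 CPM in fx1, fx2 and fx3, against 1836, 3553 and 886 CPM in wt1, wt2 and wt3. Library wt3 lay among the fx/fx libraries, and the other wt/wt libraries lay above all of them. The means were 906 ± 94.9 CPM in fx/fx and 2092 ± 1352 CPM in wt/wt (SD, n = 3 each), a log2 fold change of -1.21 (SE 0.47, 95% interval -2.30 to -0.11). The adjusted p was 0.311 in edgeR and 0.126 in DESeq2. Leaving out wt3 gave -1.58, with a DESeq2 call (adjusted p = 0.00392), and leaving out wt2 gave -0.59. The 99 neighbours of Srebf1 had medians of -0.61 (fx1), -0.08 (fx2) and -0.73 (fx3), whereas Srebf1 was at -0.91, -0.90 and -1.17 there. In the wt/wt libraries Srebf1 was at 0.03 (wt1), 0.98 (wt2) and -1.02 (wt3), so wt3 lay below fx1 and fx2. The part of the region in the values of Srebf1 was not tested. Srebf1 gives rise to isoforms from alternative starts, and counts per gene do not separate them.

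**Figure D4:**
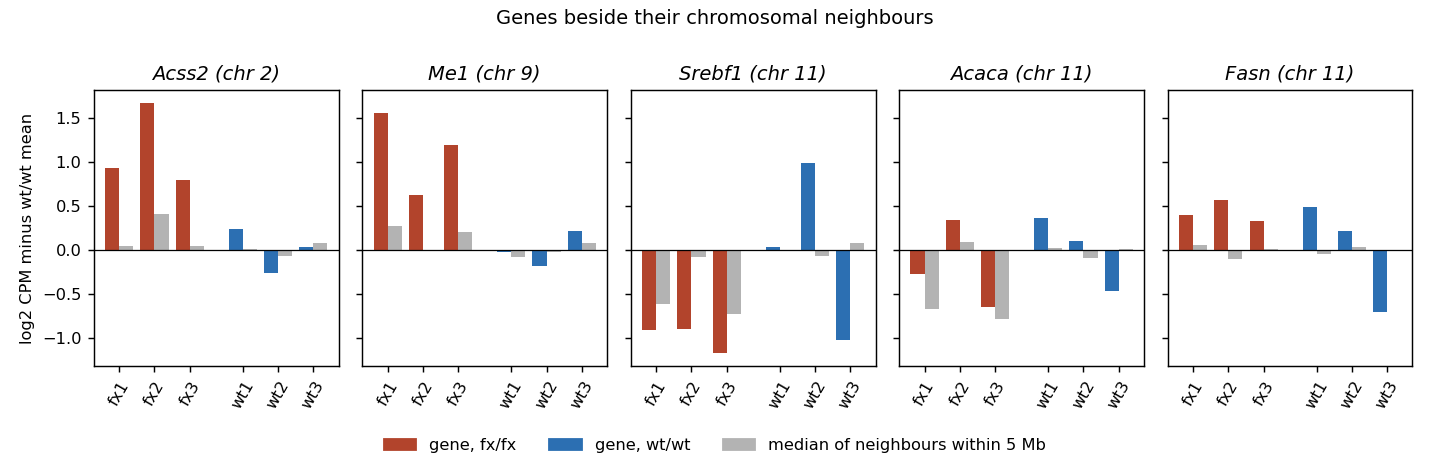
Log2 CPM minus the wt/wt mean (vertical axis) of 5 genes in each library (colored bars) beside the median of protein-coding genes within 5 Mb (gray bars). Srebf1 and Acaca lie in a region of chromosome 11 with medians between -0.79 and -0.61 in fx1 and fx3, and Acss2 in a region with a median of 0.41 in fx2.

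Thrsp (ENSMUSG00000035686, chromosome 7, 97412938 to 97417730, minus strand) encodes a small protein that promotes lipogenesis in liver, fat and mammary gland. It measured 23.2, 89.4 and 21.9 CPM in fx1, fx2 and fx3, against 149, 111 and 63.3 CPM in wt1, wt2 and wt3. Libraries fx1 and fx3 were below all wt/wt libraries, and fx2 lay inside the wt/wt range. The means were 44.8 ± 38.6 CPM in fx/fx and 108 ± 43.1 CPM in wt/wt (SD, n = 3 each), a log2 fold change of -1.27 (SE 0.60, 95% interval -2.68 to 0.14, edgeR adjusted p = 0.397). With all libraries the DESeq2 adjusted p was 0.243. Without fx2 the log2 fold change was -2.26, with an edgeR adjusted p of 0.0893 and a DESeq2 adjusted p of 6.58e-06. DESeq2 called 1622 of 28980 genes with any count in that setting, against 831 of 29540 with all libraries. In edgeR the log2 fold change was -0.96 without fx1, -0.93 without fx3 and -0.96 without wt1. The DESeq2 adjusted p of Thrsp was 0.654, 0.519 and 0.663 there. Its paralog Mid1ip1, which stimulates acetyl-CoA carboxylase, differed the other way at 35.2, 26.4 and 21.2 CPM in fx1, fx2 and fx3, against 17.4, 15.3 and 13.5 CPM in wt1, wt2 and wt3. For Mid1ip1 the log2 fold change was 0.84 (SE 0.24, edgeR adjusted p = 0.220).

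Per length, the order of the 10 by mean level differed between the genotypes. In fx/fx it was Scd2, Scd1, Srebf1, Me1, Acly, Fasn, Thrsp, Elovl6, Acss2 and Acaca, and in wt/wt it was Srebf1, Scd1, Scd2, Me1, Thrsp, Acly, Fasn, Elovl6, Acaca and Acss2. Srebf1 averaged 537 ± 79.8 TPM in fx/fx and 1253 ± 858 TPM in wt/wt (SD, n = 3 each), and Acss2 averaged 10.8 ± 4.001 TPM in fx/fx and 4.76 ± 0.671 TPM in wt/wt. Scd2 averaged 950 ± 93.5 TPM in fx/fx and 557 ± 498 TPM in wt/wt (SD, n = 3 each). Srebf1 exceeded Scd2 in 3 of 6 libraries, the wt/wt ones, and was below it in all fx/fx libraries. Scd2 exceeded Scd1 in 3 of 6 libraries, fx1, fx3 and wt3. Thrsp exceeded Fasn in 4 of 6, the wt/wt libraries and fx2. Me1 exceeded Acly in 6 of 6 libraries, Fasn exceeded Elovl6 in 6 of 6 and Elovl6 exceeded Acaca in 6 of 6. Acaca exceeded Acss2 in the 3 wt/wt libraries and was below it in the 3 fx/fx libraries. That order depends on the exon lengths used, 17074 bases for Acaca and 10163 for Acss2. In CPM, without division by length, Acaca exceeded Acss2 in every library. Summed over the 10, the level was 3121 ± 360.4 TPM in fx/fx and 3207 ± 2185 TPM in wt/wt (n = 3 each), a difference smaller than the spread in either genotype. The 2 desaturases made up 53.6% ± 2.22 of the sum in fx/fx and 32.9% ± 18.7 in wt/wt (SD, n = 3 each), without overlap.

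The members were also compared by their course over the 6 libraries, as the root mean square difference of centred log2 CPM. The closest of 45 pairs was Acly and Elovl6 (0.15), followed by Fasn and Elovl6 (0.32), and the farthest was Scd2 and Thrsp (1.83). Srebf1 was nearer to Acaca (0.64), Thrsp (0.80) and Fasn (0.81) than to Acly (1.011), Acss2 (1.28) or Me1 (1.30). The neighbours of Srebf1 and of Acaca on chromosome 11 both had lower medians in fx1 and fx3, and their part in this nearness was not tested. Among 10920 other protein-coding genes with a mean of at least 5 CPM, Dync1h1 (0.18), Fgd3 (0.19), Rassf2 (0.20), Fes (0.20) and H2-DMa (0.20) were nearest to Fasn. Elovl6 ranked 115 by this measure, Acly 645 and Acaca 884. The other members were farther, with Acss2 at 5688, Me1 at 8416, Srebf1 at 9822, Scd2 at 10254, Scd1 at 10447 and Thrsp at 10507. These distances are descriptions over 6 libraries.

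Regulators of SREBP activity overlapped between the genotypes. Srebf2, the gene of SREBP2 (0.22, SE 0.18), its escort Scap (-0.30, SE 0.19) and the retention factor Insig1 (0.43, SE 0.27) had these log2 fold changes, with edgeR adjusted p between 0.511 and 0.630. Mlxipl, the carbohydrate response factor, was at most 6.43 CPM (wt2). Over the regulator list, 18 of 36 tested genes had positive and 18 negative log2 fold changes, with a median of 0.01. At an unadjusted edgeR p under 0.05, 5 were higher and 2 lower. Nr1d1, a repressor of the circadian clock, measured 103, 91.0 and 110 CPM in fx1, fx2 and fx3, against 36.9, 37.2 and 29.0 CPM in wt1, wt2 and wt3. Its log2 fold change was 1.56 with an SE of 0.18, and DESeq2 called it (adjusted p = 5.77e-08) while edgeR did not (adjusted p = 0.150). Mtor was lower without overlap (-0.78, SE 0.21) and lies on chromosome 4, where the median log2 fold change of its neighbours was -0.68.

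Downstream of palmitate, 17 of 22 tested genes for elongation, desaturation and activation had a positive log2 fold change, with a list median of 0.24. Of these, 4 were higher and 0 lower at an unadjusted edgeR p under 0.05, and DESeq2 called 1 higher. Tecr, the enoyl reductase that completes each elongation cycle, measured 459, 284 and 473 CPM in fx1, fx2 and fx3, against 209, 211 and 200.01 CPM in wt1, wt2 and wt3, without overlap. Its log2 fold change was 0.97 (SE 0.23, DESeq2 adjusted p = 0.0213, edgeR adjusted p = 0.185). Elovl5, an elongase of unsaturated fatty acids, was at 301, 153 and 274 CPM in fx1, fx2 and fx3, against 128, 145 and 138 CPM in wt1, wt2 and wt3 (log2 fold change 0.83, SE 0.26). Acsl3, an acyl-CoA synthetase, had a log2 fold change of 1.15 (SE 0.39) and Hacd4, a dehydratase of elongation, 0.66 (SE 0.28), with edgeR adjusted p of 0.262 and 0.343. The desaturase Fads1 (-0.16, SE 0.37) and Fads2 (0.76, SE 0.77) overlapped between the genotypes. Scd3 was between 9.64 and 19.0 CPM in all libraries, Scd4 was not tested because of low counts, and Olah, the thioesterase that ends chain growth in the lactating gland, was at most 1.82 CPM.

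Of 21 genes of glycerolipid assembly, 16 had a positive log2 fold change, with a median of 0.28, 3 higher and 1 lower at an unadjusted edgeR p under 0.05. Lpin1, a phosphatidate phosphatase, had a log2 fold change of 1.009 (SE 0.41) and Gpd1, which makes glycerol phosphate, -0.67 (SE 0.25). Pnpla3 was called higher by DESeq2 (adjusted p = 0.0114) at levels of at most 6.53 CPM. Fatty acid oxidation genes had a median of -0.09, with 9 of 23 positive, 1 higher and 4 lower at an unadjusted edgeR p under 0.05. Acadvl and Decr1 were among the lower ones (-0.76 and -0.63), and both have neighbours with medians between -0.76 and -0.65 in fx1 and fx3. Ehhadh (-0.64, SE 0.20), a peroxisomal enzyme on chromosome 16, was lower with neighbours between -0.05 and 0.18. Of 9 tested genes of mitochondrial fatty acid synthesis, 2 had a positive log2 fold change, and the median was -0.12, 0 higher and 1 lower at an unadjusted edgeR p under 0.05. The lower one was Mecr on chromosome 4 (-0.66, SE 0.23), whose neighbours had medians of -0.66 (fx1), -0.06 (fx2) and -0.77 (fx3).

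Cholesterol synthesis genes, the SREBP2 branch, had a median of 0.85, with 19 of 20 positive, 12 higher and 0 lower at an unadjusted edgeR p under 0.05, and 6 called higher by DESeq2. All genes tested had 8.18% higher and 6.04% lower in edgeR, and 2.89% higher in DESeq2. Of 13 tested genes of fatty acid uptake and transport, 10 were positive, with a median of 0.70, 8 higher and 0 lower at an unadjusted edgeR p under 0.05. Lpl, lipoprotein lipase, had a log2 fold change of 1.404 (SE 0.47), Cd36, a fatty acid transporter, 1.48 (SE 0.50) and Fabp5, a fatty acid binding protein, 0.98 (SE 0.31). Lpl measured 30.9, 80.2 and 25.5 CPM in fx1, fx2 and fx3, and Cd36 19.9, 69.4 and 27.0 CPM. Fabp5 was at 45.8, 33.7 and 49.9 CPM there. The lists share genes: Fabp4 of this list and Cidea of the regulator list are also among the adipocyte markers below.

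**Figure D5:**
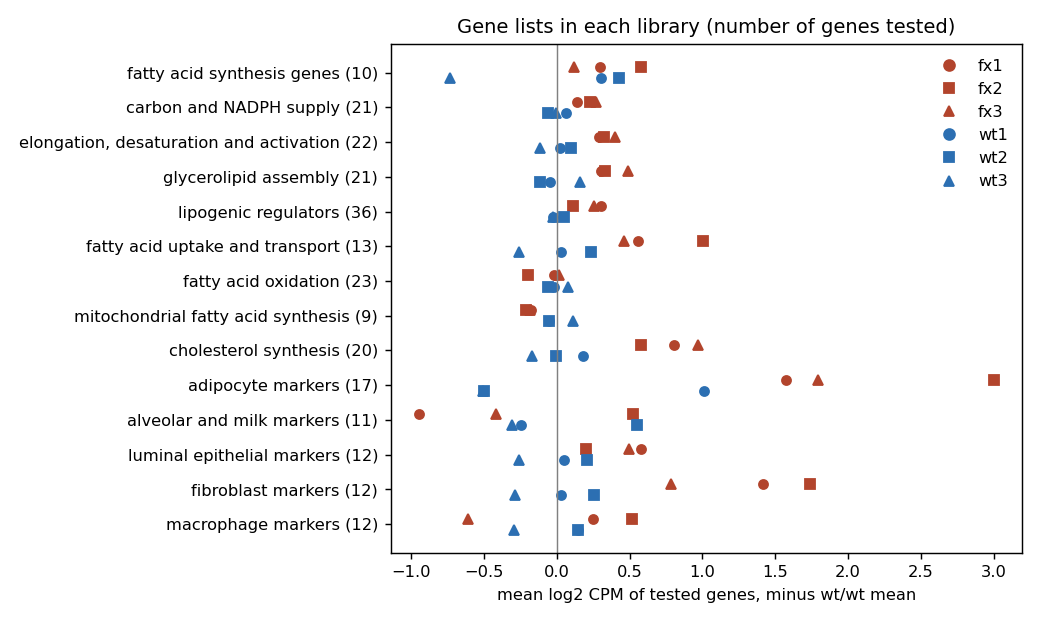
Mean log2 CPM of the tested genes of each list minus the wt/wt mean (horizontal axis), fx/fx libraries above wt/wt libraries in each row. The 10 fatty acid synthesis genes overlap between the genotypes, as do fatty acid oxidation, milk, luminal and macrophage genes. Cholesterol synthesis genes lie between 0.58 and 0.97 in fx/fx against -0.17 to 0.18 in wt/wt. Fibroblast markers lie between 0.79 and 1.735 against -0.29 to 0.26. Elongation, glycerolipid, uptake and adipocyte lists are also higher without overlap, and mitochondrial fatty acid synthesis is lower without overlap. Carbon supply (0.14 in fx1 against 0.065 in wt1) and regulators (0.11 in fx2 against 0.05 in wt2) are apart by a small gap. Of the 36 regulators 18 have a positive log2 fold change, with a median of 0.01. How often lists lie apart was not tested.

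Markers of fat cells, which also make fatty acids, were mostly higher in fx/fx. Of 17 tested adipocyte markers, 16 had a positive log2 fold change, with a median of 2.42, and 11 did not overlap in the higher direction, against 9.74% of all genes. Their summed level was 198, 532 and 221 CPM in fx1, fx2 and fx3, against 171, 111 and 109 CPM in wt1, wt2 and wt3. The defining marker Adipoq, adiponectin, was at 4.84, 19.1 and 5.80 CPM in fx1, fx2 and fx3, against 4.34, 0.626 and 0.590 CPM in wt1, wt2 and wt3. Plin1, which coats the fat droplet, was at 3.93, 21.02 and 6.48 CPM in fx1, fx2 and fx3, against 4.68, 0.402 and 0.611 CPM in wt1, wt2 and wt3. Library fx2, highest in both, was also the fx/fx library with the most Acss2, Thrsp, Fasn, Acaca, Acly, Scd1 and Srebf1. It had the least Me1 and Scd2 of the fx/fx libraries. The margins were small for Acly, Srebf1 and Scd2. Of the 17 markers, only Retn was at 0 in any library, in wt3. Their part in the levels of the 10 genes was not tested.

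Markers of other cells were measured beside these. Fibroblast markers had a median of 1.41, with 11 of 12 positive and summed levels of 895 to 1653 CPM in fx/fx and 336 to 579 CPM in wt/wt. Luminal epithelial markers had a median of 0.19, with 10 of 12 positive and sums of 6503 to 8207 CPM in fx/fx and 5168 to 7433 CPM in wt/wt. Macrophage markers had a median of 0.03, with 7 of 12 positive and sums of 339 to 771 CPM in fx/fx and 504 to 600.0 CPM in wt/wt. Milk and alveolar genes had a median of 0.38, with 7 of 11 positive. Among them Lalba, alpha-lactalbumin, was lower without overlap at 282, 846 and 25.6 CPM in fx1, fx2 and fx3, against 2568, 1684 and 1326 CPM in wt1, wt2 and wt3 (log2 fold change -2.27, SE 1.03, edgeR adjusted p = 0.380). Like Thrsp, Lalba was highest in wt1 and lowest in fx3. The part of these cell types in the levels of the 10 genes was not tested.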

How the data were processed

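RNA-seq counts of 3 fx/fx and 3 wt/wt tumor libraries were used. RNA isolation used TRIZOL and then RNeasy columns, and libraries followed standard Illumina protocols, per the labels. The deposited values were raw counts of read pairs per gene. Per the file headers, the authors made them with featureCounts 1.6.0 and the Ensembl 93 annotation of GRCm38, with strand option 2, both ends aligned and chimeric pairs left out. Reads with several alignments were not set to be counted. The submitters' processing notes name STAR 2.5.1b and featureCounts 1.4.6, a version other than that of the headers. The deposited files also gave each gene's exon length (another quantity, in bases), used for TPM.

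Of 54232 identifiers, 54165 took a symbol from GENCODE M21 (GRCm38), and 0 rows named no gene. The main test was edgeR 4.0.16 in R 4.3.3: filterByExpr, TMM, the robust quasi-likelihood test (2-sided) and Benjamini-Hochberg adjustment over all genes, with 0.05 as threshold. SEs are the log2 fold change over the root of F. CPM used TMM-scaled library sizes, and log2 CPM a prior count of 2. Alternatives were DESeq2 1.42.0, limma 3.58.1 voom, other size factors, no filter, the replicate number as a block and the omission of each library. The steps were tested on simulated data. The members and lists were chosen with earlier results of these data known. Named genes were the 10 members, up to 4 genes of smallest p per list, 20 regulators, transporters and markers listed by name, and the 5 nearest to Fasn; Csn3, Krt8, Krt18, Epcam, Scd3 and Scd4 were added. Not every gene that this rule covers is reported here.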

Additional observations from a re-analysis of the deposited data

How the results depend on the processing

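With edgeR and all 6 libraries, 0 genes, 0 of the 10 fatty acid synthesis genes and 0 genes of the other lists were called. DESeq2 called 831 of 18033 genes (4.61%), 2 of the 10 (Me1 and Acss2) and 30 genes of the other lists. Among the latter were 8 of 17 tested adipocyte markers and 8 of 12 fibroblast markers. With no filter on low counts, the edgeR calls were 38 genes, 0 of the 10 and 3 of the other lists. With 1 library left out, edgeR called between 0 and 2 genes, and 0 of the 10. The DESeq2 calls were then 508, 1622 and 856 genes (without fx1, fx2 and fx3) and 412, 573 and 544 genes (without wt1, wt2 and wt3). Between 28770 and 29108 genes with any count entered these fits, against 29540 in the fit of all 6 libraries. The 18033 genes above are those with an adjusted p, a smaller base, which is not given for the fits with a library left out. Of the 10, the calls held 1, 3, 2, 0, 0 and 2, and of the other lists 21, 33, 30, 27, 27 and 18. The counts of the 10 and of the lists with a library left out were therefore not set against the 4.61%. With a library left out, DESeq2 called Me1 without fx2, fx3 or wt3, Acss2 without fx1, fx2 or fx3, Thrsp without fx2 and Srebf1 without wt3. At an unadjusted p under 0.05, edgeR had 5 of the 10 and 2381 of 16752 genes, and limma-voom, which also called 0 genes, had 2390 genes. With a library left out, edgeR had between 3 and 5 of the 10. Over all genes tested it then had between 1683 (without fx1) and 3067 (without fx2).

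The median log2 fold change of the 10 was 0.43, between 0.17 (without wt3) and 0.61 (without wt1) in edgeR and between 0.18 and 0.62 in DESeq2 with a library left out. The signs of Fasn, Acly, Me1, Acss2, Scd2, Elovl6, Srebf1 and Thrsp were the same in all 18 alternatives. Scd1, at -0.04, was 0.75 in limma-voom and 0.73 with the replicate block, 0.25 without fx3 and 1.16 without wt2 in edgeR, and 0.26 and 1.14 in DESeq2, with omissions ranging from -0.58 to 1.16. Acaca, at -0.17, was 0.042 without fx3 and 0.02 without wt1 in edgeR, where omissions ranged from -0.488 to 0.042, and 0.034 and 0.03 in DESeq2. The cause was not tested. Same-numbered libraries did not deviate together (correlations of -0.09, -0.09 and 0.06 over 16752 genes). The replicate block called 0 genes and 0 of the 10, and changed no other call. With RPKM on TMM-scaled library sizes the summed level in fx/fx over wt/wt was 0.98, against 0.97 in TPM.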
